A study of Mus musculus with 9 samples.

Results

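Cholesterol and fatty acid synthesis was examined in the mouse hippocampus through 31 genes: 17 for the mevalonate and sterol enzymes, 3 for regulators of the sterol regulatory element binding proteins (SREBPs), 6 for fatty acid synthesis and desaturation, and 5 for sterol efflux, storage and transport or phospholipid remodelling. The genes were taken by symbol from a table of 18275 genes, where each had to have a mean of at least 10 normalised counts over the 9 libraries, and all 31 did. None of the 31 differed between Nestin;BrafKE/+ and Braf+/+ mice at an adjusted p under 0.05 in limma, against 2.88% of all 16196 genes tested (1.52% higher and 1.36% lower in the mutants). The 17 sterol enzymes had a median log2 fold change of 0.02 and ran from -0.12 for Mvd to 0.15 for Mvk. Myelin genes of the same libraries were higher in the mutants, by a median of 0.29, and 4 of 15 passed the test. The members farthest from 0 were Abca1, Soat1 and Fasn, at 0.26, 0.21 and 0.20.

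Hippocampal RNA came from male mice of 11 to 15 weeks, labelled as strain C57BL/6N, with 1 library for each of 4 Nestin;BrafKE/+ and 5 Braf+/+ littermates. Nestin;BrafKE/+ mice carry 1 Braf allele that encodes BRAF with the K499E substitution, numbered as in the human protein, which is expressed once Cre recombinase has removed a wild-type cassette. Cre was driven by the Nestin promoter, which acts in embryonic neural stem cells, so the neurons, astrocytes and oligodendrocytes that descend from them can carry the active allele, and a change in bulk tissue cannot be assigned to 1 of these cell types. Whether the Braf+/+ animals carried Nestin-Cre is not given in the sources used here. The libraries' names hold 4 prefixes, which were taken as 3 series, called A, B and C here and known only from these names. Series A merges 2 prefixes, that of controls 1 and 2 and that of mutant 1 and control 3. Series A held mutant 1 and controls 1, 2 and 3, series B held mutants 2 and 3 and control 4, and series C held mutant 4 and control 5.

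Cholesterol does not cross from blood into brain in appreciable amounts, so the brain makes its own, and oligodendrocytes use much of it for myelin while astrocytes supply neurons through lipoproteins. Cells build it from acetyl-CoA by the mevalonate pathway, squalene and lanosterol. When membrane sterol falls, SREBPs leave the endoplasmic reticulum with their escort and switch on these enzymes together, whereas INSIG proteins hold them back when sterol is plentiful. Oxidised sterols act on liver X receptors (LXRs), which switch on efflux transporters and fatty acid synthesis.

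The starts of 3 members are shown because they stand for these controls: Hmgcs1 for SREBPs, and Fasn and Abca1 as the members with the lowest unadjusted p. Each window is a RefSeq promoter, 250 bases before to 50 after the annotated start on the gene's own strand, located in GRCm39 by its sequence. The Hmgcs1 window is chr13:120151637-120151936 on the plus strand, the Fasn window chr11:120715324-120715623 on the minus strand and the Abca1 window chr4:53159846-53160145 on the minus strand. In Gencode the Fasn gene (120696672 to 120715995) covers the whole of its window, and the Hmgcs1 and Abca1 genes begin inside theirs. Capitals mark matches, on either strand, to a sterol regulatory element written as TCACNCCAC, the NF-Y box CCAAT, the Sp1 box GGGCGG and the E-box CACGTG.
Hmgcs1: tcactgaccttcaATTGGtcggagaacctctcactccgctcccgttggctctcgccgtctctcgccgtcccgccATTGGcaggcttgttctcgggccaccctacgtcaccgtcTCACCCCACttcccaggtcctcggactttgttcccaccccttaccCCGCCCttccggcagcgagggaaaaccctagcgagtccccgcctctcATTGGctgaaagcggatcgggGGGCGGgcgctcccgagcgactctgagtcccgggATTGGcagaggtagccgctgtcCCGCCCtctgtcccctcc
Fasn: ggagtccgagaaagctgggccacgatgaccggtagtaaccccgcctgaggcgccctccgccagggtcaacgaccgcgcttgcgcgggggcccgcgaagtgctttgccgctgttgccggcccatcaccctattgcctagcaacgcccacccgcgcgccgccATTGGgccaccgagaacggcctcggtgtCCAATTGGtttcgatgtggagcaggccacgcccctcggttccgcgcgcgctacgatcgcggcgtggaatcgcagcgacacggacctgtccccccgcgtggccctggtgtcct
Abca1: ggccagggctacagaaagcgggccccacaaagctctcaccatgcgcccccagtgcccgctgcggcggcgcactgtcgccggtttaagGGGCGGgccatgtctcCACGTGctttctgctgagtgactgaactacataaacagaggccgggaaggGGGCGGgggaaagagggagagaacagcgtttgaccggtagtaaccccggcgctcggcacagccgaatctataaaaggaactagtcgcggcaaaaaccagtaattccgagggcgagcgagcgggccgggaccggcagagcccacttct

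The Hmgcs1 window held TCACCCCAC at base 114, 4 NF-Y boxes and 3 Sp1 boxes. The Fasn window held 3 NF-Y boxes, of which those at bases 189 and 192 overlap, and the Abca1 window held 2 Sp1 boxes and 1 E-box. Of the 31 members, 24 had a promoter in the RefSeq table. The form TCACNCCAC was found in 1 of the 24 and in 1.44% of all 27025 genes with a promoter there, and a longer form of it, with 1 more base in front and the open base fixed, in 0 and in 0.0999%. CCAAT was found in 20 of the 24, among them 13 of 14 sterol enzymes, and in 41.1% of all genes, and GGGCGG likewise in 20, with 13 of 14 sterol enzymes, and in 38.2%. CACGTG was found in 5 of the 24 and in 8.09% of all genes. The consensus LXR element, an exact direct repeat of AGGTCA with 4 bases between, was found in 0 and in 0.0148%. Only exact letters were searched, so an LXR site that differs from them in any base was not counted. These matches describe letters in a window and are not binding sites.

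Library totals of the normalised counts ran from 19550000 to 20090000, and the values had been adjusted for batches before deposit, so the reads behind a value are unknown. The targeted gene Braf was lower in the mutants, with a log2 fold change of -0.30, a standard error (SE) of 0.07 and an adjusted p of 0.0378 in limma, and the groups did not overlap. The hippocampal markers Prox1, C1ql2, Wfs1, Fibcd1 and Zbtb20 had means of at least 1212. Of these, Wfs1 and Fibcd1 were higher in the mutants, by 0.61 and 0.40 on the log2 scale (adjusted p of 0.00037 and 0.018 in limma), and the other 3 did not pass. Choroid plexus genes stood apart in controls 2 and 4, where their mean log2 level was 3.25 and 2.14 above the mean of the 9 libraries, against at most 0.22 in the other libraries. Of all genes tested, 466 passed the test, 246 higher and 220 lower in the mutants. That count was 42 without mutant 1, 165 without mutant 3, 281 without control 1 and 97 without control 4.

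No member passed the test in limma, a linear model fitted over all genes with the name series as a term. An unadjusted p under 0.05 was found for 4 members, Fasn, Abca1 and Abcg1 higher and Acly lower, against 18.5% of all genes tested (8.86% higher and 9.61% lower). The values of mutants and controls did not overlap for 3 members (Fasn, Abcg1 and Acly), against 15.7% of all genes. The median log2 fold change of the members was 0.04 and 20 of 31 were above 0, where the median of all genes was 0.00033 and 50.1% were above 0. The median absolute log2 fold change was 0.072 for the members and 0.121 for all genes. The 95% interval lay within 0.3 of 0 on the log2 scale for 20 members and reached from -0.36 (Mvd) to 0.47 (Soat1) at its widest. The genotype difference had the same sign in all 3 series for 9 of 31 members, against 36.6% of all genes. The count of members past the threshold was 1 without control 4, against 0.598% of all genes tested, and 0 without each of the other 8 libraries. The 1 was Abca1, with an adjusted p of 0.0493 in limma. Without the series term 3 members passed, Fasn and Abca1 higher and Acly lower, against 14% of all genes tested, so that count is no result about the members.

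**Figure D1:**
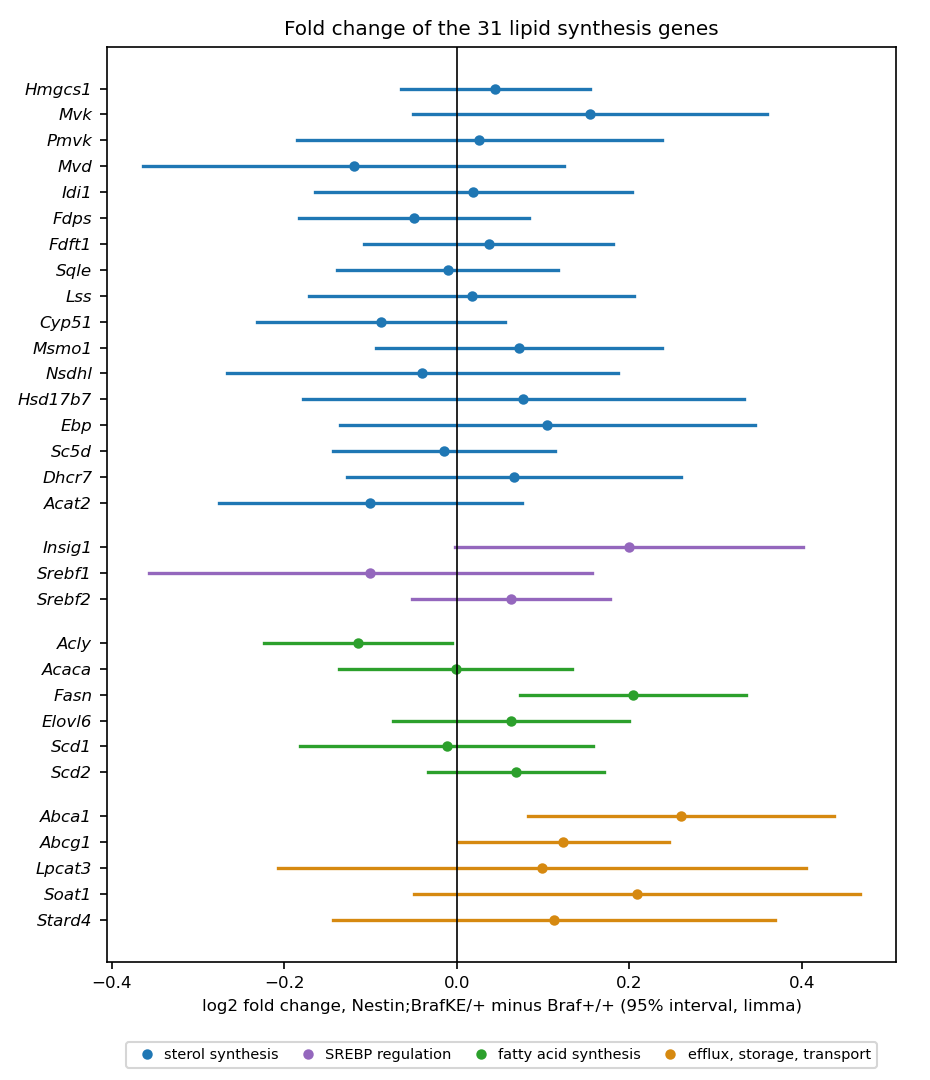
Log2 fold change (x axis) of each of the 31 genes, Nestin;BrafKE/+ minus Braf+/+, as a point with its 95% interval from limma, coloured by role. The points of the sterol enzymes lie between -0.12 and 0.15, and the intervals that do not reach 0 are those of Acly below it and of Fasn, Abca1 and Abcg1 above it, none with an adjusted p under 0.05.

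The sterol enzymes were taken first, in the order of the pathway. Hmgcs1 makes the HMG-CoA that enters the mevalonate pathway, and it is a classical SREBP target. Its normalised counts were 5345, 5070.5, 4981 and 5191 in mutants 1 to 4, and 4730.5, 4973, 5064, 5230.5 and 4946 in controls 1 to 5. Control 4 was above 3 of the mutants and the groups overlapped. Between the genotypes the log2 fold change was 0.04 (95% interval -0.06 to 0.15, adjusted p = 0.674). The next enzymes turn mevalonate into isoprenoid units. Mvk, which phosphorylates mevalonate, had the highest log2 fold change of the sterol enzymes, 0.15 (-0.05 to 0.36). Mvd, which decarboxylates it at the end of these steps, had the lowest, -0.12 (-0.36 to 0.12), and was at -0.25 without control 4. Pmvk, Idi1 and Fdps lay between, at 0.03, 0.02 and -0.05. Fdps shares 81.3% of its transcript at 95% identity or more with another annotated transcript, and Idi1 shares 26.4%, so reads of these genes may have been split between copies.

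Fdft1, or squalene synthase, commits the pathway to sterols. The mutants had 1469.8, 1484, 1379.7 and 1428 and the controls 1262, 1429, 1497, 1421 and 1415, so control 1 was the lowest and control 3 the highest of all 9 libraries. At 0.04 (-0.11 to 0.18) its log2 fold change was near 0, and 35.9% of its transcript is shared with a near-identical one. Sqle, squalene epoxidase, is a control point of the later pathway. In the mutants it had 1097, 1142, 1031 and 1083, and in the controls 1055, 1109, 1111, 1101 and 1102. The mutants enclosed the range of the controls, and the log2 fold change was -0.01 (-0.14 to 0.12, adjusted p = 0.946).

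The enzymes from lanosterol onward showed no common direction. Lss, which closes the sterol rings, was at 0.02. Cyp51, which removes a methyl group from lanosterol, was at -0.09 (-0.23 to 0.06), and its difference was below 0 in each series, -0.02 (series A), -0.09 (B) and -0.18 (C). Msmo1, Nsdhl and Hsd17b7, which act in the removal of the other methyl groups, were at 0.07, -0.04 and 0.08. Ebp, Sc5d and Dhcr7, which shift and reduce double bonds to finish the sterol, were at 0.11, -0.01 and 0.07. Acat2, which joins acetyl-CoA units in the cytosol, was at -0.10 (-0.28 to 0.08) and shares 55.4% of its transcript with Acat3. Of the 17 sterol enzymes, 10 were above 0 and 7 below, 0 had an unadjusted p under 0.05, and adjusted p ran from 0.417 to 0.946 in limma. Their 95% interval lay within 0.3 of 0 for 13 of the 17. The same sign in every series was found for 3 of the 17.

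Among the regulators, Srebf2 encodes the SREBP that chiefly drives sterol genes. Its counts were 3912, 4201, 3707 and 3842 in the mutants, and 3706, 3685, 3831, 3679 and 3814 in the controls. Mutants 1, 2 and 4 were above every control, mutant 3 was not, and the log2 fold change was 0.06 (-0.05 to 0.18, adjusted p = 0.559). Srebf1 encodes the SREBPs that chiefly drive fatty acid genes. It had 1072, 1241, 1232 and 959 in the mutants, and 1216, 1191, 1244, 985 and 1402 in the controls. The lowest values were those of mutant 4 and control 4 and the highest that of control 5. It had a log2 fold change of -0.10 (-0.36 to 0.16), and the direction was not shared between series, at -0.18 (series A), 0.33 (B) and -0.55 (C). Leaving out 1 library moved it to -0.33 (without control 4) and turned its sign, to 0.06, without mutant 4 or control 5. The latter 2 fits are 1 result, because series C held only these libraries and the series term absorbs the one that remains. Insig1 encodes the sterol-sensing anchor that retains SREBPs, and is itself an SREBP target. Its values were 1380.4, 1064, 1279.9 and 1248 in the mutants, and 998, 1088, 1030.4, 1213 and 1069 in the controls. Mutants 1, 3 and 4 were above every control and mutant 2 lay among them. The log2 fold change was 0.20 (SE 0.09, unadjusted p = 0.0524, adjusted p = 0.277 in limma), and the series gave 0.41 (series A), -0.06 (B) and 0.22 (C). It was 0.06 without mutant 1 and 0.34 without control 4.

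Fatty acid synthesis was represented by 6 genes. Fasn is the fatty acid synthase, which assembles palmitate, and both SREBPs and LXRs are known to act on it. It had 4903, 5398, 5142 and 4837 in the mutants and 4295, 4608, 4424, 4066 and 4607 in the controls, which is 5069.9 ± 255 (SD, n = 4) and 4399.9 ± 229 (SD, n = 5). All 4 mutants were above all 5 controls. The log2 fold change was 0.20 (SE 0.06, 95% interval 0.07 to 0.34), or 15.2% on the linear scale, with an unadjusted p of 0.00559 and an adjusted p of 0.0985 in limma, so it missed the threshold. The series gave 0.14 (series A), 0.37 (B) and 0.07 (C), and leaving out 1 library at a time gave 0.11 to 0.25. A two-sided exact permutation test gave p = 0.00794 over all 9 libraries and p = 0.0417 with the series kept together, which are the lowest p it can reach here. For 7.62% of all genes tested every mutant was likewise above every control.

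Acly, which makes cytosolic acetyl-CoA from citrate for both fatty acids and sterols, went the other way. Its counts were 2642, 2636, 2593 and 2472 in the mutants and 2791, 2755, 2782, 2738 and 2928 in the controls. All 4 mutants were below all 5 controls, as for 8.13% of all genes tested. The log2 fold change was -0.11 (SE 0.05, 95% interval -0.22 to -0.01, unadjusted p = 0.0407, adjusted p = 0.247 in limma), and the series gave -0.07 (series A), -0.07 (B) and -0.24 (C). Acaca, whose product acetyl-CoA carboxylase takes the committed step between Acly and Fasn, was at -0.0013 (-0.14 to 0.13), with 64.3% of its transcript shared with a predicted gene. Elovl6, which lengthens palmitate, was at 0.06 (-0.07 to 0.20).

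Scd1 and Scd2 place the first double bond into saturated fatty acids. Scd1 had 3576, 3416, 3051 and 3387 in the mutants and 2996, 3669.6, 3284, 3645 and 3347 in the controls. Control 1 was the lowest and control 2 the highest of the 9 libraries, and the log2 fold change was -0.01 (-0.18 to 0.16). Scd2, a gene that myelinating cells use heavily, had 31710, 30868, 31021 and 32142 in the mutants and 28969, 29899, 30700, 30926 and 29314 in the controls. Mutants 1, 3 and 4 were above every control and mutant 2 was below control 4. For Scd2 the log2 fold change was 0.07 (-0.03 to 0.17, adjusted p = 0.466), and 11.4% of the Scd2 transcript is shared with Scd1.

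**Figure D2:**
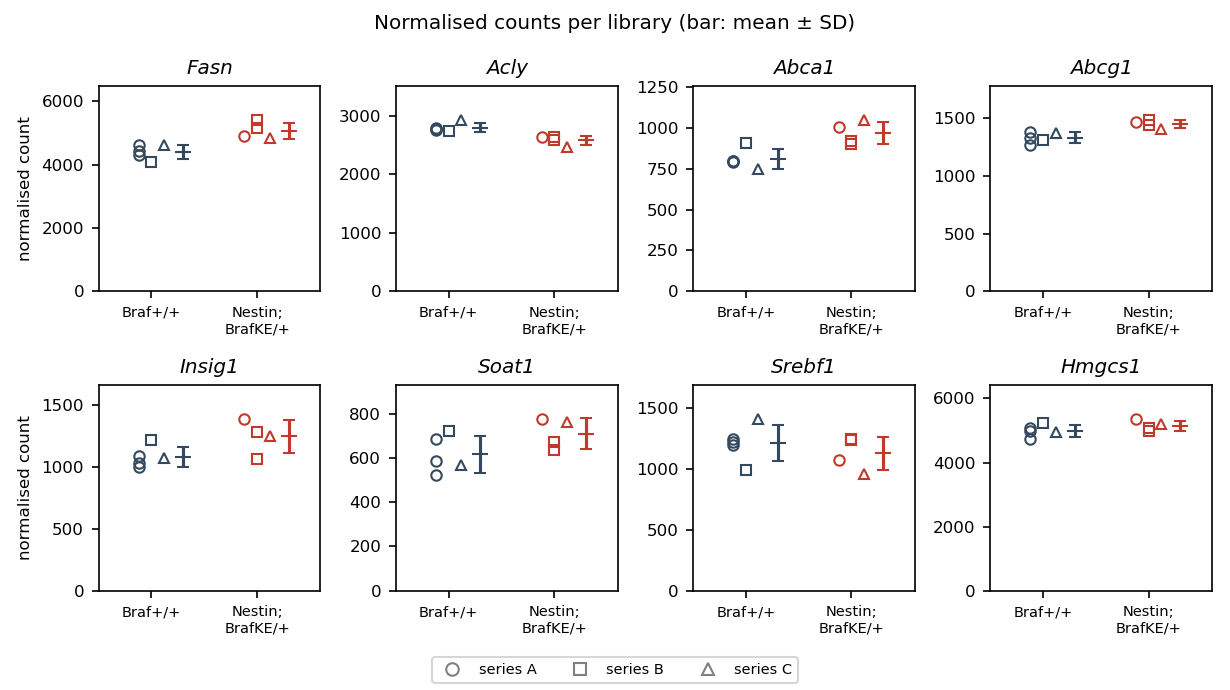
Normalised counts (y axis, from 0) of 8 genes in each library, with Braf+/+ at the left and Nestin;BrafKE/+ at the right of each panel, marker shape for the name series and a bar for the mean ± SD (n = 5 and 4). The groups separate without overlap for Fasn, Acly and Abcg1, and overlap for Abca1, Insig1, Soat1, Srebf1 and Hmgcs1.

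All 5 genes of efflux, storage and transport had a log2 fold change above 0, with a median of 0.12, and none passed the test. Abca1 exports cholesterol to lipoproteins and is a classical LXR target. It had 1005, 924, 906 and 1049 in the mutants and 799, 795, 801, 909 and 748 in the controls, or 971 ± 67.6 (SD, n = 4) and 810.4 ± 59.4 (SD, n = 5). Mutants 1, 2 and 4 were above every control, and mutant 3 was just below control 4. The log2 fold change was 0.26 (SE 0.08, 95% interval 0.08 to 0.44, unadjusted p = 0.00807, adjusted p = 0.119 in limma). The series gave 0.33 (series A), 0.01 (B) and 0.49 (C). It was 0.39 without control 4, where it passed the threshold (adjusted p = 0.0493 in limma). Series B held no other control, so mutants 2 and 3 add nothing to the difference in that fit. Choroid plexus genes were high in controls 2 and 4, which had 795 and 909, and their part in Abca1 was not tested. Without mutant 4 or control 5 the log2 fold change was 0.18, which is 1 result, because series C held only these libraries.

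Abcg1 also exports sterols and is also an LXR target. Its counts were 1471, 1483, 1445 and 1404 in the mutants and 1266, 1380.2, 1327, 1308 and 1376 in the controls. All 4 mutants were above all 5 controls, and the difference was above 0 in each series, 0.15 (series A), 0.16 (B) and 0.03 (C). The log2 fold change was 0.12 (SE 0.06, 95% interval 0.0011 to 0.25, unadjusted p = 0.0483, adjusted p = 0.267 in limma). Soat1, which esterifies cholesterol for storage, was at 0.21 (-0.05 to 0.47), Stard4, which carries sterol through the cytosol, at 0.11 (-0.14 to 0.37), and Lpcat3, which remodels phospholipids and is an LXR target, at 0.10 (-0.21 to 0.40). For Soat1 and Stard4 the direction differed between series, with -0.15 and -0.24 in B. The value of Soat1 was 0.40 without control 4 and 0.10 without mutant 1.

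Other genes of the same pathways were counted to set the members beside them. Of 41 listed, 40 reached the minimum mean, and 3 passed the test, all higher in the mutants: Cyp46a1, Elovl1 and Elovl5. The share of all genes tested that passed was 2.88%, and 1.52% passed as higher. An unadjusted p under 0.05 was found for 12 of the 40, against 18.5% of all genes, and 30 of the 40 were above 0, against 50.1%, with a median of 0.08. By role, 0 of 7 other sterol enzymes, 0 of 4 genes of SREBP processing, 0 of 5 of lipoprotein uptake, 0 of 4 of LXR signalling, 1 of 8 of sterol transport and clearance and 2 of 12 of fatty acid metabolism passed.

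Cyp46a1 hydroxylates cholesterol in neurons so that it can leave the brain. It rose in the mutants, with 3013, 2885, 3117 and 2882, from 2513, 2381, 2464, 2424 and 2545 in the controls. Every mutant was above every control, and the change was 0.27 on the log2 scale (SE 0.05, adjusted p = 0.0210 in limma), or 0.30 (series A), 0.31 (B) and 0.18 (C). Elovl1, which lengthens very long saturated fatty acids, rose from 199, 231, 198, 202 and 220.2 to 303, 322, 291 and 285. The groups did not overlap, and the change was 0.51 on the log2 scale (SE 0.10, adjusted p = 0.0253 in limma). Elovl5, which lengthens polyunsaturated fatty acids, rose from 1333, 1455, 1493, 1407 and 1457 to 1739, 1616, 1888 and 1700. These groups did not overlap either, and the change was 0.28 on the log2 scale (SE 0.07, adjusted p = 0.0497 in limma). The 3 calls did not hold in every fit: 0 of the 40 genes passed without mutant 1, without mutant 3 or without control 4. In those fits 0.259%, 1.02% and 0.598% of all genes tested passed, so that 0 is no result about these genes. Elovl1 also missed the threshold without mutant 2, and of the 9 fits that left out 1 library Elovl5 passed in 1, that without mutant 2.

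Myelin genes were compared in the same libraries, because myelin takes up much of the cholesterol made in the brain. All 15 had a log2 fold change above 0, with a median of 0.29. Mobp, Mog, Cldn11 and Mag, which encode proteins of the myelin sheath, rose by 0.58, 0.53, 0.39 and 0.41, with adjusted p of 0.0253, 0.0278, 0.0177 and 0.0457 in limma. The count of 4 was 0 without mutant 1, mutant 3 or control 4, 1 without mutant 2 and 2 without control 2. Of all genes tested, 0.259%, 1.02%, 0.598%, 1.99% and 1.94% passed in these fits, in that order. The myelin level of a library was taken as the mean over the 15 genes of the log2 value less that gene's mean over the 9 libraries. It was 0.21, 0.11, 0.25 and 0.11 in mutants 1 to 4 and -0.32, -0.18, 0.05, -0.16 and -0.07 in controls 1 to 5. Every mutant was above every control, with a difference of 0.303 in all and of 0.353 (series A), 0.339 (B) and 0.179 (C). A two-sided exact permutation test gave p = 0.0159 over all libraries and p = 0.0417 with the series kept together, the lowest the latter can reach. The myelin list was chosen with earlier results of these data known, so these p-values are no independent support. In bulk tissue fewer or more cells of a type and less or more RNA per cell cannot be told apart.

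The sterol enzyme level, computed the same way over the 17 genes, was 0.04, 0.03, -0.03 and -0.02 in the mutants and -0.07, 0.01, 0.02, 0.01 and 0.02 in the controls. Mutants 3 and 4 lay below 4 of the 5 controls, control 1 was the lowest library, and the difference was 0.0120. The level of the 6 fatty acid genes was 0.0351 higher in the mutants and that of the 3 regulators 0.0546 higher, both with overlapping groups. The level of the 5 efflux, storage and transport genes was 0.12, 0.08, 0.01 and 0.14 in the mutants and -0.16, 0.02, -0.11, 0.02 and -0.12 in the controls. It was higher by 0.161 in the mutants, with mutants 1, 2 and 4 above every control, and the series gave 0.208 (A), 0.0292 (B) and 0.266 (C).

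**Figure D3:**
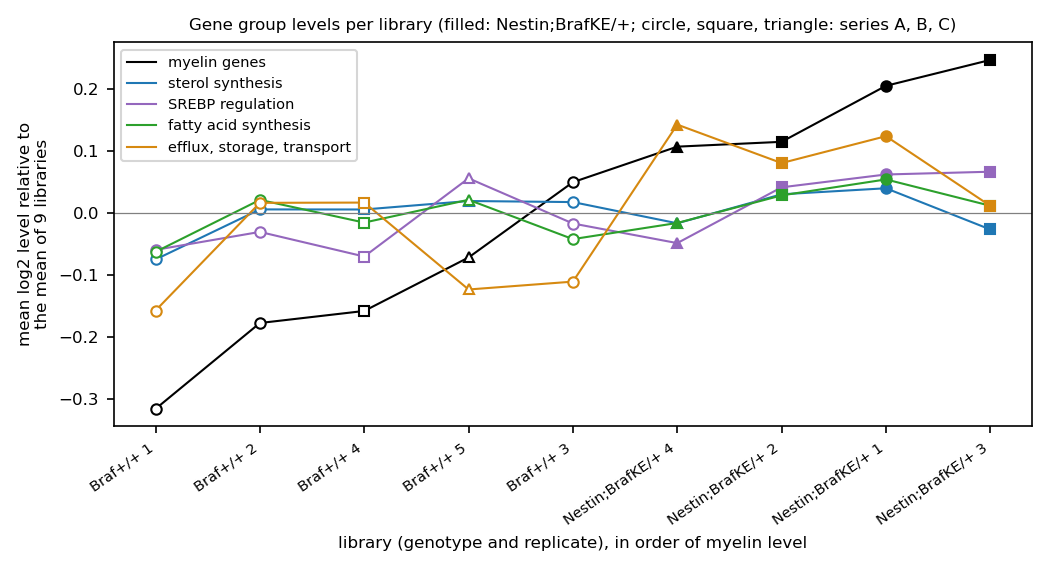
Mean log2 level of each gene group relative to the mean of the 9 libraries (y axis), with libraries on the x axis in order of their myelin level, filled markers for Nestin;BrafKE/+ and marker shape for the name series. In this order the myelin line rises by construction, from -0.32 to 0.25. The sterol synthesis line lies between -0.07 and 0.04, and that of efflux, storage and transport between -0.16 and 0.14.

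Whether a member varied with the myelin level among libraries of the same genotype and series was tested as a slope in limma. No member passed at an adjusted p under 0.05, against 0% of all genes, and 0 members had an unadjusted p under 0.05, against 4.8% of all genes. The slope was above 0 for 23 of the 31 and the lowest unadjusted p was 0.0806, for Cyp51. Slopes ran from -0.91 (Lpcat3, SE 0.62) to 0.69 (Ebp, SE 0.49). Of the 15 myelin genes, which make up the level themselves, 11 had an unadjusted p under 0.05 and 0 passed. The test therefore cannot show that a member did not vary with the myelin level. With the myelin level subtracted from each log2 value, a quantity chosen after the values were seen, all 31 members were lower in the mutants, by 0.04 (Abca1) to 0.42 (Mvd), and 8 passed the test. That is near the 29.7% of all genes that passed as lower in the same test (30.2% in either direction), so the count is no result about these members. The count was 0 without mutant 1, 2 without mutant 3, 1 without control 4, 3 without mutant 4, control 2 or control 5, and 20 without control 3. The share of all genes was not taken in those fits, so these counts are no result about the members either.

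Marker levels of some other cells differed with genotype too. Of 10 astrocyte markers 8 were higher in the mutants and 3 passed the test, and their level was 0.258 higher, with every mutant above every control, between 0.10 and 0.19 against -0.17 and -0.07. The summed counts of that list were 114690 to 128370 in the mutants and 107210 to 120960 in the controls, and no marker of it was near 0. The level of 5 oligodendrocyte precursor markers was 0.292 higher and that of 5 microglial markers 0.130 higher, each again with every mutant above every control. Of the precursor markers 4 were higher and 1 lower, and only Cspg4 passed, at 0.65. Of the microglial markers 4 were higher and 1 lower, and 0 passed. The level of 6 neuronal markers was 0.0549 lower, and 0 passed. Of these, 4 were lower (Snap25, Syt1, Rbfox3 and Slc17a7, by 0.10 to 0.18) and 2 higher (Gad1 and Gad2, by 0.04 and 0.18). The level of 5 endothelial markers was 0.0263 higher, with overlapping groups, and 0 passed. The level of the 5 hippocampal markers was 0.185 higher, with every mutant above every control, and 2 of the 5 passed, Wfs1 and Fibcd1, which mark CA1 neurons. The part of these cell markers in the efflux genes, Fasn, Cyp46a1, Elovl1, Elovl5 and the myelin genes was not tested beyond the fits with the myelin or astrocyte level as a term, in which 0 of all genes tested passed and every mutant had a higher level than every control. In the fit with the astrocyte level the log2 fold change was -0.20 for Fasn and 0.90 for Abca1, with adjusted p of 0.999 for both in limma.

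**Figure D4:**
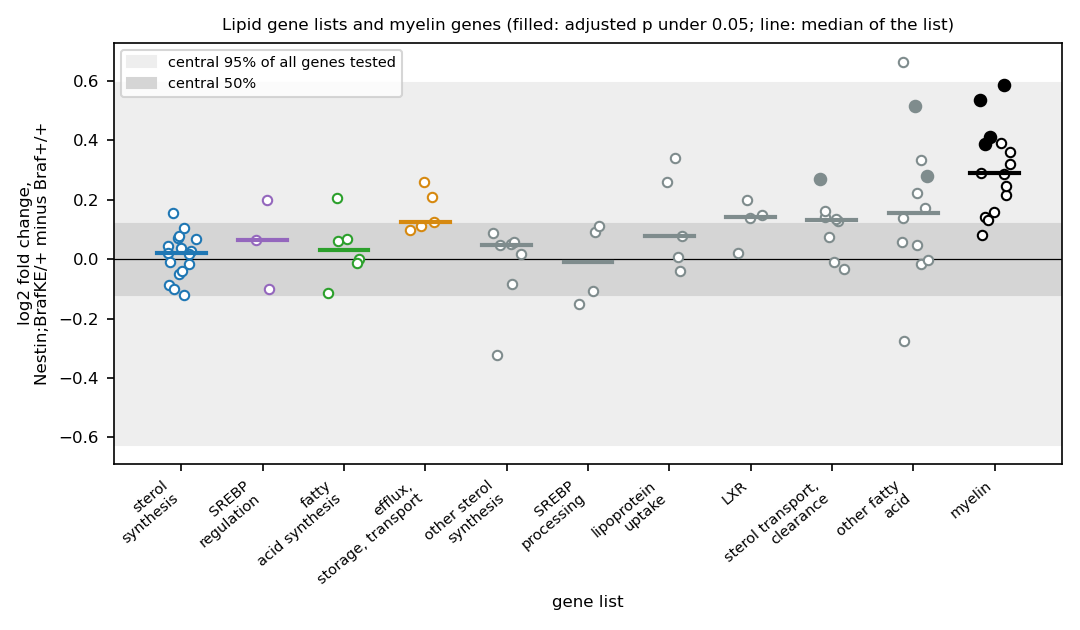
Log2 fold change, Nestin;BrafKE/+ minus Braf+/+ (y axis), of each gene in the lists on the x axis, filled where the adjusted p was under 0.05, with a line at the median of each list and grey bands for the central 95% (-0.63 to 0.59) and 50% (-0.12 to 0.12) of all genes tested. The medians run from 0.02 for sterol synthesis to 0.12 for efflux, storage and transport among the members, and the myelin median is 0.29.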

How the data were processed

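Stranded mRNA libraries were sequenced, and the authors processed the reads with Trim Galore, STAR (genome GRCm39) and Salmon. They then corrected for batches, which the sources used here do not identify, and applied DESeq2 scaling. The deposited table holds 1 signal per gene and library in normalised counts. These are whole multiples of a step near 1 (100% within 0.01) but not reads, because the batch adjustment came first, so no count model was used and the error of a value is the spread between libraries. P-values measure the spread between animals, 1 library each.

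Genes with a mean of at least 10 (16196 of 18275) entered a limma fit (version 3.58.1, R 4.3.3) on log2(value + 1), with genotype and name series as terms and eBayes with a mean-variance trend. The two-sided p-values were corrected over all these genes (Benjamini-Hochberg), and 0.05 was the threshold. Fold changes are on the log2(value + 1) scale, and intervals cover 95%. Single levels were tested with exact permutation, over all libraries or within series. The steps were tested on simulated data. Coordinates and overlaps came from Gencode on GRCm39, shared transcripts from blastn 2.17.0, and promoters from RefSeq. Figures used Python 3.11.15 and matplotlib 3.10.9.

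The members and lists were chosen with earlier results of these data known, so no list of members was tested as a set. The myelin level was tested, and the same limit applies to its p-values. Values of every library are given for members with an unadjusted p under 0.05 and for Hmgcs1, Sqle, Fdft1, Srebf1, Srebf2, Insig1, Fasn, Scd1, Scd2 and Abca1, the other members by their fold change, and of the other lists genes past the threshold and those a statement turns on. Alternatives were other pseudocounts (0.5 and 8), filters (none and 50), scalings, series terms, a replicate block, array weights, robust eBayes, myelin or astrocyte level as a term, and leaving out each library. Results for some listed pathway genes are not reported here.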

Additional observations from a re-analysis of the deposited data

Results flagged for a closer look

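In 6 of the 62 sets of values formed by the 31 genes and both genotypes, 1 library stood far from the rest of its group by Dixon's criterion, where chance gives about 1 in 20. Among the mutants, Mvk had 313 normalised counts in mutant 4 against 343 to 348 in the others, and Mvd had 314 in mutant 2 against 255 to 259.57. In control 1, Sqle was low at 1055 against 1101 to 1111 in the other controls, and so was Cyp51 at 1119 against 1242 to 1284. Lss was high in control 2 at 828 against 679.62 to 718, and Acly in control 5 at 2927.5 against 2738 to 2791. All 6 were sterol or fatty acid enzymes, as are most of the 31 genes, none of which had a genotype call. Without mutant 2 the log2 fold change of Mvd was -0.18 in place of -0.12, and without control 5 that of Acly was -0.07 in place of -0.11.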

How the results depend on the processing

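The count of 0 members was the same under other pseudocounts, filters and scalings, 4 name prefixes, array weights, robust eBayes and the myelin or astrocyte level as a term. Members past the threshold, higher, numbered 2 without the series term and 0 to 1 with 1 library left out, and lower 1 without the series term. Without that term Fasn, Abca1 and Acly had adjusted p of 0.0158, 0.0209 and 0.0487 in limma. Other pathway genes past the threshold numbered 11 without the series term, 0 with 4 prefixes, 1 with array weights, 0 with the myelin and 0 with the astrocyte level as a term, and 0 to 4 with 1 library left out. Myelin genes numbered 9, 2 and 1 under the first 3 of these and 0 to 6 with 1 left out. Members lower relative to the myelin level numbered 20, 3 and 21, and 0 to 20 with 1 left out. The share of all genes was not taken in these fits and was 29.7% in the main fit. These counts are therefore no result about the members. The slope on the myelin level gave 0 members in every fit. In the main fit it gave 0% of all genes too, so this 0 is no result about the members. The myelin difference ran from 0.236 to 0.346. Replicate numbers did not pair the libraries: same-numbered libraries deviated together with r of -0.39, -0.08, 0.07 and 0.41. The replicate block gave 2 members higher (Fasn and Abca1), 7 pathway genes, 9 myelin genes and 21 members relative to myelin. All-gene counts were 2260 (14%) without the series term and 1405 (8.67%) with the block. They were 165 (1.02%) with 4 prefixes, 258 (1.59%) with array weights and 0 with either level. With 1 library left out they ran from 42 (0.259%) to 369 (2.28%). The members' standard errors of 0.05 to 0.14 limit what 9 libraries can show, and read depth is unknown.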

Other observations

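Some other pathway genes stood out without passing the test, and are given as values chosen after they were seen. Lbr, a sterol reductase of the nuclear envelope, was at -0.32 on the log2 scale (SE 0.11, adjusted p = 0.156 in limma), with every mutant below every control. Fads1 and Acsl6, which desaturate and activate polyunsaturated fatty acids, were at 0.17 and 0.22, with adjusted p of 0.110 and 0.0575 in limma, and neither overlapped between the groups. Acacb, the mitochondrial form of acetyl-CoA carboxylase, had the widest range: 310, 222, 288 and 169.50 normalised counts in the mutants and 104, 139, 185, 138 and 215 in the controls, with log2 differences of 1.15 and 0.87 in series A and B and -0.34 in C. Apoe, the main sterol carrier made by astrocytes, was at 0.14 (adjusted p = 0.280).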
